A study of Homo sapiens with 8 samples.

Results

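The 56 genes described here encode ribosome biogenesis factors, the proteins that transcribe, modify, cut and assemble ribosomal RNA. They were chosen as a named list by gene symbol, and all 56 were found among the 60617 genes of the deposited count table. RNA was sequenced from HEK293T cells, an embryonic kidney line of epithelial type that carries the SV40 large T antigen, with 4 groups of 2 libraries, 8 libraries in all. These were the wild-type line (WT) and its knockout derivatives sgKDM5C, sgKDM6A and sgKMT2B, whose labels give the genotypes KDM5C knockout, KDM6A knockout and KMT2B knockout. All groups were the same cell line and differed by label only in the targeted gene. The labels do not give the guide sequences, or say whether a knockout was 1 clone or a pool, or whether replicates came from separate cultures, so the p-values measure only the spread between these libraries, which may be technical.

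Ribosomes are built in the nucleolus. RNA polymerase I transcribes a long precursor ribosomal RNA, small nucleolar ribonucleoproteins guide its methylation (box C/D) and pseudouridylation (box H/ACA), a large particle called the small subunit processome folds and cuts its 5' part, and separate factors assemble the large subunit and complete the small subunit in the nucleoplasm and cytoplasm. Genes for these factors are known as a group that follows growth and is targeted by the transcription factor MYC. Of the targeted enzymes, KDM5C removes methyl groups from histone H3 lysine 4, KMT2B adds them there, and KDM6A removes them from histone H3 lysine 27. The libraries were made from poly(A) RNA, so they report the mRNAs of the factors and not ribosomal RNA.

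The members' promoters differed in the short elements they held. RefSeq promoter windows of the GRCh38.p14 build were found for 50 of the 56 members. Their 250 bases before the transcription start were searched on both strands for the E-box CACGTG, the site bound by MYC with MAX, and for the ETS core CCGGAAG. Neither motif contains the other. Shown next are the 100 bases before the start of 7 members that the results turn on, 5' to 3' on the gene's own strand, with motif matches in capitals. WDR3 holds 2 ETS cores, LTV1 1 ETS core and UTP20 1 E-box in this stretch, and the other 4 hold neither.
NOB1, lower in every knockout (chr16:69754927-69755026, minus strand): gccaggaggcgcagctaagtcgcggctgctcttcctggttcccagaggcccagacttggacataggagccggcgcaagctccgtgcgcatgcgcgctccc
WDR43, lower in sgKDM5C (chr2:28894567-28894666, plus strand): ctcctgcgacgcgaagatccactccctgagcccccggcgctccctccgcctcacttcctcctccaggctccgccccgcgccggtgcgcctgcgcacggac
WDR3, lower in sgKDM5C and sgKMT2B (chr1:117929639-117929738, plus strand): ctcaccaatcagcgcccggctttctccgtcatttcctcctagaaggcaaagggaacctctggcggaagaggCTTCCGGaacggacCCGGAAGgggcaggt
NOL6, higher in sgKDM6A and sgKMT2B (chr9:33473925-33474024, minus strand): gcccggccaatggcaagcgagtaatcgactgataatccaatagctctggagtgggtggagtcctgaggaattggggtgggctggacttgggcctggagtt
LTV1, higher in sgKDM6A and sgKMT2B (chr6:143843238-143843337, plus strand): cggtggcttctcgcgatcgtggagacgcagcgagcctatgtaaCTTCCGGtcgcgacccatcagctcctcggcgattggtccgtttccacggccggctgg
NOP14, lower in sgKMT2B (chr4:2963407-2963506, minus strand): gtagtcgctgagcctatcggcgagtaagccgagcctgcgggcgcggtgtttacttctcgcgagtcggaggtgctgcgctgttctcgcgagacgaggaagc
UTP20, higher in sgKMT2B (chr12:101280005-101280104, plus strand): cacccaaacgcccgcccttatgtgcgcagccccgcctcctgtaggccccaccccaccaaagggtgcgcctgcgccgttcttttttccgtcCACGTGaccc

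Over the 250 bases, the ETS core was in 18 of the 50 member promoters (36.0%), in 14.8% of the 12005 promoters of tested genes and in 8.5% of all 35116 promoters. It was in 33.0% of 109 promoters of other ribosome biogenesis genes and 28.6% of 63 promoters of cytosolic ribosomal protein genes. The E-box was in 15.6% and 4.8% of these 2 sets, 8.7% of tested genes and 6.3% of all promoters. Among members it was in 6 (12.0%). Those 6 were EBNA1BP2, NAT10, NOP10, UTP18, UTP20 and UTP4, and in UTP20, NOP10, NAT10 and UTP4 an E-box began at base -10, -11, -15 and -16 from the start. Against WT, EBNA1BP2 was called higher in sgKDM6A under all 17 alternatives too, whereas the UTP4 call there was lost under 11. UTP20 was called higher in sgKMT2B, but not without WT replicate 1 (adjusted p = 0.0607) or sgKMT2B replicate 1 (adjusted p = 0.198). None of the 6 was called by edgeR in sgKDM5C (lowest adjusted p 0.0557, for UTP20). There UTP20 was called higher with upper-quartile factors, without a filter, with a minimum mean of 1 CPM, with the replicate number as a block and with DESeq2. NAT10 went the other way there, at -0.26 (adjusted p = 0.0684), and was called lower with the replicate number as a block. These are matches of letters in a window and describe no binding.

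WT replicate 2 was the shallowest library, with a total count of 15868353, and sgKDM6A replicate 2 the deepest, with 27591724. All 56 members passed the filter on low counts that left 17527 tested genes. Each targeted gene was lower in its own knockout: KDM5C was at 440.4 and 470.9 CPM (counts scaled to each library's total with the TMM factors of edgeR) in WT and 331 and 312 in sgKDM5C, KDM6A at 54.2 and 61.2 in WT and 10.3 and 11.5 in sgKDM6A, and KMT2B at 146 and 137 in WT and 63.0 and 75.5 in sgKMT2B. KDM5C had a log2 change of -0.50 in its own knockout. By edgeR it was also called lower in sgKDM6A, at -0.25 (adjusted p = 0.0359). In sgKMT2B it was at -0.21 (adjusted p = 0.0667). Since no guide position is known here, the mRNA left in a knockout checks only its label. The markers of the line differed between groups: of 7 tested, 2 were called lower in sgKDM5C, 5 lower in sgKDM6A, and 5 lower and 1 higher in sgKMT2B. The keratin KRT8 was at 247 and 265 CPM in sgKMT2B, 59.9 and 61.3 in WT, 51.6 and 50.8 in sgKDM5C, and 5.15 and 5.61 in sgKDM6A. VIM, KRT18 and PAX2 were detected in every library, with PAX2 at 7.77 CPM or more. EPCAM was at 3.35 and 2.15 CPM in WT and 0.832 and 0.357 in sgKDM6A, and NEFL at 12.8 and 15.3 in WT and 4.37 and 5.56 in sgKDM5C. The summed level of 8 such markers was 726 to 845 CPM in WT, 633 to 661 in sgKDM5C, 670.5 to 684 in sgKDM6A and 725 to 798 in sgKMT2B. The summed level of 18 markers of leukocytes, endothelium, fibroblasts and hepatocytes was 86.0 and 99.1 CPM in sgKMT2B, 58.5 and 61.1 in WT, 38.6 and 42.3 in sgKDM5C, and 28.6 and 26.6 in sgKDM6A. Most of the WT sum was COL1A1, at 52.0 and 52.8 CPM in WT and lower in each knockout, with 37.9 and 44.0 in sgKMT2B. COL3A1 was at 1.32 and 1.69 CPM in WT and 40.3 and 46.1 in sgKMT2B. The part of these markers in the results was not tested. The leukocyte genes PTPRC and CD3E were at or near 0 in every library, and of the remaining markers of the line LHX1 was near 0 throughout and NEFM was at 5.58 and 5.72 CPM in WT and at 0 counts in sgKDM5C and sgKDM6A.

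Summed over the 56 members, the level was 9351 and 8978 CPM in sgKDM6A, 8592 and 8068 in sgKMT2B, 8509.6 and 7452 in WT, and 7317 and 6732 in sgKDM5C. In this sum, both sgKDM5C libraries lay below both WT libraries and both sgKDM6A libraries above them, while sgKMT2B overlapped WT. The sum is weighted to the abundant members. The median member's log2 deviation from its mean over the 8 libraries was -0.117 and -0.296 in sgKDM5C, and -0.023 and -0.154 in WT. By this measure sgKDM5C and WT overlapped. In sgKDM6A it was 0.252 and 0.2, and in sgKMT2B 0.158 and -0.012, all above both WT libraries. The lower sgKMT2B value was close to the higher WT value. In bulk samples, fewer cells with the mRNA and less mRNA per cell cannot be told apart. Replicate 1 was above replicate 2 in the sum of every group. The median member was higher in replicate 1 by 0.18 (log2) in sgKDM5C, 0.14 in sgKMT2B, 0.13 in WT and 0.06 in sgKDM6A. Per kilobase of exon, the WT levels ran from 393 CPM per kb for NPM1, a histone chaperone of the nucleolus, and 282 for FBL, the box C/D methyltransferase, through 46.9 for POLR1E, to 3.10 for UTP15. RRN3, NOP2 and DDX47 were lower still, at 0.117, 0.159 and 0.304 CPM per kb. On GRCh38 in the GENCODE v29 annotation, 4 of the members that lead the results are POLR1E (ENSG00000137054, chr9:37485935-37503697, plus strand), NOB1 (ENSG00000141101, chr16:69741867-69754940, minus strand), NOP58 (ENSG00000055044, chr2:202265716-202303666, plus strand) and PWP2 (ENSG00000241945, chr21:44107290-44131181, plus strand), all protein-coding.

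**Figure D1:**
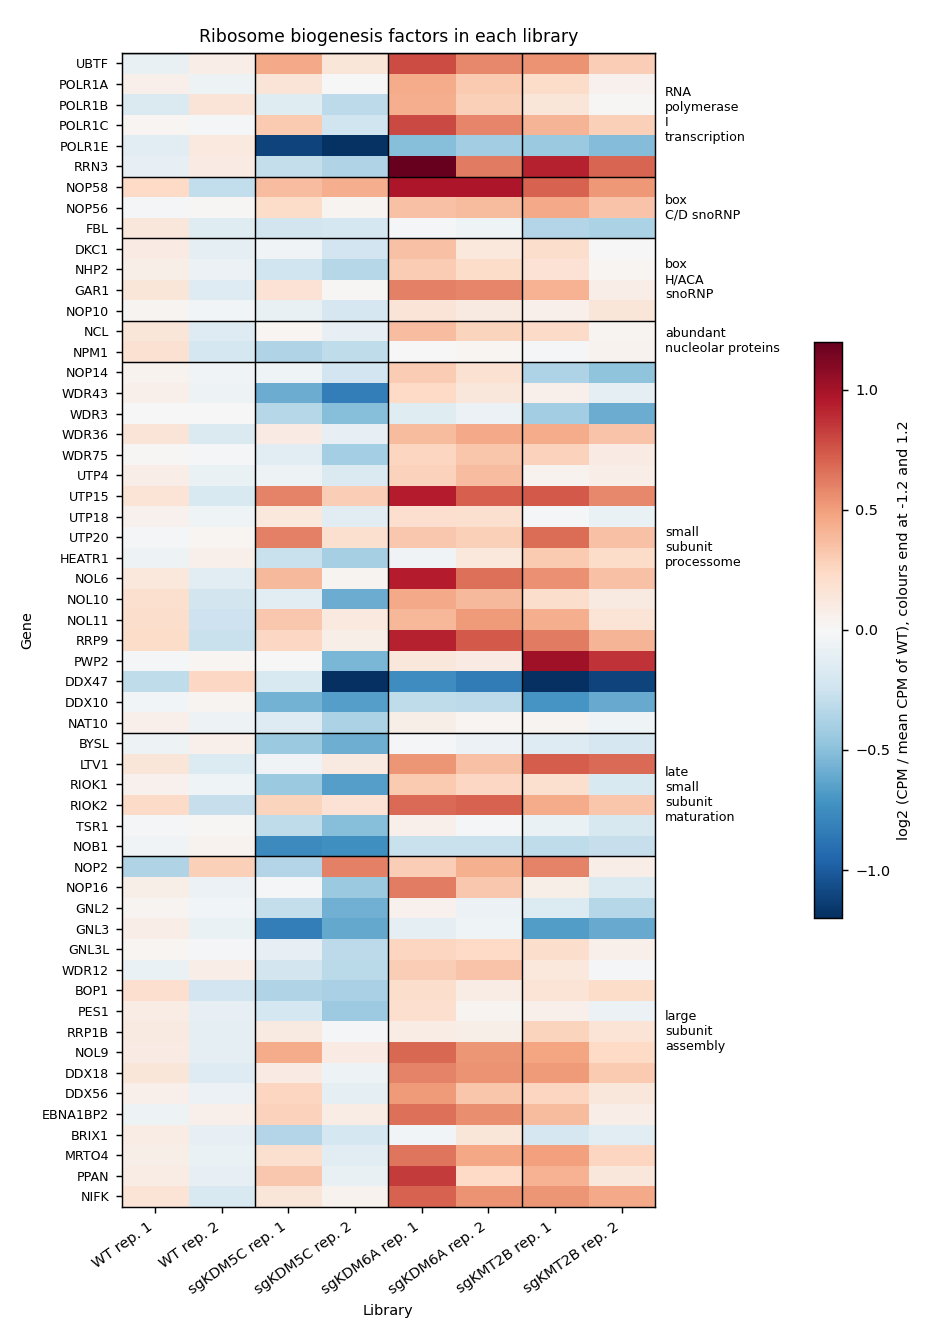
Level of each of the 56 genes (rows, grouped by role) in each of the 8 libraries (columns), as log2 of CPM over the WT mean, with colours ending at 1.2 above and below the WT mean. The sgKDM5C columns are mostly on the lower side and the sgKDM6A columns mostly on the higher side, while sgKMT2B holds rows of both kinds.

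In sgKDM5C, members fell or did not pass the test. Against WT, 15 of 56 were called lower and 0 higher by edgeR's quasi-likelihood test at an adjusted p under 0.05, where 11.5% of the 17527 tested genes were called lower and 11.1% higher (22.6% in either direction). At an unadjusted p under 0.05 the same test put 4 members higher and 21 lower, and DESeq2 called 2 higher and 15 lower. The median log2 change was -0.14 over the members and 0.02 over all tested genes. With genes of lower level left out, 11249 of those tested remained, averaging 5 CPM or more. Of these, 1790 were called lower and 1403 higher, with a median of -0.019. The change was below 0 in 33 members and above 0 in 23. The members' median was -0.066 without sgKDM5C replicate 2, -0.09 without WT replicate 1, -0.226 without sgKDM5C replicate 1 and -0.087 with each gene scaled to its 50 nearest genes. Among members, lower calls were most frequent in the late small subunit factors, with 4 of 6. In a list of other ribosome biogenesis genes, 1 of 8 of this role was lower, and 5 of 10 in RNA polymerase I transcription. Lower members were 4 of 18 in the small subunit processome, 4 of 17 in large subunit assembly and 1 of 6 in RNA polymerase I transcription. They were 1 of 4 in box H/ACA, 1 of 2 among the abundant nucleolar proteins and 0 of 3 in box C/D. Without sgKDM5C replicate 2 the counts were 6 lower and 3 higher, and without WT replicate 1 they were 12 lower and 4 higher.

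POLR1E, the PAF53 subunit of RNA polymerase I, showed the clearest fall. It was at 108 and 128 CPM in the WT libraries, 86.6 and 82.1 in those of sgKMT2B, 82.6 and 88.5 in those of sgKDM6A, and 54.6 and 52.0 in those of sgKDM5C. No knockout library reached the lower WT library, and the sgKDM5C libraries were lowest. The log2 change in sgKDM5C was -1.14 ± 0.11 (SE, adjusted p = 3.36e-05), 2.21-fold lower. None of the other RNA polymerase I members was called in sgKDM5C. UBTF, which opens the ribosomal DNA for the polymerase, had a log2 change of 0.31 ± 0.12 (SE, adjusted p = 0.0908) there.

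Among the late small subunit factors, NOB1, the endonuclease that makes the final cut at the 3' end of 18S rRNA, was at 136 and 145 CPM in the WT libraries, 114 and 116 in those of sgKMT2B, 117 and 117 in those of sgKDM6A, and 82.6 and 84.1 in those of sgKDM5C. The 4 groups formed 3 levels, with WT on top, sgKDM6A and sgKMT2B close together in the middle and sgKDM5C at the bottom. The log2 change in sgKDM5C was -0.75 ± 0.09 (SE, adjusted p = 0.000151). BYSL, a factor that joins the pre-40S particle, was at 112 and 122 CPM in WT and 86.0 and 78.2 in sgKDM5C and fell by 0.51 (SE 0.10, adjusted p = 0.00259). The atypical kinase RIOK1, which acts in cytoplasmic release of late factors, was at 46.2 and 43.0 CPM in WT and 32.7 and 28.2 in sgKDM5C and fell by 0.55 (SE 0.14, adjusted p = 0.012), and the GTPase-like TSR1 was at 123 and 125 CPM in WT and 101 and 87.1 in sgKDM5C and fell by 0.40 (SE 0.10, adjusted p = 0.012). The sgKDM5C libraries were below both WT libraries for all 3. Without sgKDM5C replicate 2 the adjusted p of RIOK1 was 0.085 and that of TSR1 0.112. LTV1 and RIOK2, the remaining factors of this stage, had a log2 change of 0.03 ± 0.14 (SE, adjusted p = 0.902) and a log2 change of 0.21 ± 0.16 (SE, adjusted p = 0.364).

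Of the processome, WDR43, WDR3, DDX10 and HEATR1 fell. DDX10, a DEAD-box helicase of early precursor cleavage, was at 69.8 and 72.8 CPM in the WT libraries, 43.7 and 47.0 in those of sgKMT2B, 57.9 and 57.5 in those of sgKDM6A, and 48.2 and 45.0 in those of sgKDM5C. WT was highest, and the sgKDM5C and sgKMT2B libraries overlapped at the bottom. Its log2 change in sgKDM5C was -0.61 ± 0.10 (SE, adjusted p = 0.00143). WDR43, a WD-repeat subunit of the UTP-A complex, was at 104 and 95.7 CPM in the WT libraries, 105 and 92.3 in those of sgKMT2B, 118 and 110.3 in those of sgKDM6A, and 66.1 and 56.2 in those of sgKDM5C. The sgKDM5C libraries lay below the other 6, with a change of -0.71 ± 0.11 (SE, adjusted p = 0.000887). The 50 tested genes nearest to it on chromosome 2 had a median log2 change of -0.44 in sgKDM5C, and scaled to those neighbours WDR43 was at -0.29 (adjusted p = 0.0996). WDR3, a subunit of the UTP-B complex, was at 117 and 118 CPM in WT and 92.4 and 82.0 in sgKDM5C and fell by 0.43 (SE 0.10, adjusted p = 0.0101). Without sgKDM5C replicate 2 its adjusted p was 0.0857. HEATR1 (the human UTP10) fell by 0.33 (SE 0.10, adjusted p = 0.0266), with an adjusted p of 0.156 without that library and 0.0916 without WT replicate 2.

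In large subunit assembly, GNL3, GNL2, BOP1 and PES1 fell. GNL3 (nucleostemin), a nucleolar GTPase, was at 178 and 159 CPM in the WT libraries, 106 and 111 in those of sgKMT2B, 156 and 162 in those of sgKDM6A, and 94.7 and 110.0 in those of sgKDM5C. Its levels formed a lower pair of groups, sgKDM5C and sgKMT2B, and an upper pair, WT and sgKDM6A, with no overlap between the pairs. The log2 change in sgKDM5C was -0.72 ± 0.10 (SE, adjusted p = 0.000448). GNL2, its relative, fell by 0.42 (SE 0.12, adjusted p = 0.0218), with an adjusted p of 0.176 without sgKDM5C replicate 2 and 0.0682 without WT replicate 1. BOP1 and PES1, which form the PeBoW complex with WDR12, fell by 0.38 (SE 0.12, adjusted p = 0.0342) and by 0.32 (SE 0.11, adjusted p = 0.0472), while WDR12 had a log2 change of -0.27 ± 0.10 (SE, adjusted p = 0.0766). BOP1 was at 379.6 and 282 CPM in WT and 257 and 253 in sgKDM5C, and without WT replicate 1 its change was -0.14 (adjusted p = 0.28). The PES1 call was lost under 11 of 17 alternatives, with adjusted p-values up to 0.27.

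The 2 remaining lower members were NPM1 and NHP2. NPM1 was at 1714 and 1298 CPM in WT and 1174 and 1222 in sgKDM5C, so the spread between the WT libraries was wide, and the fall of 0.33 (adjusted p = 0.0386) became -0.12 without WT replicate 1 (adjusted p = 0.28). This gene has 49 named pseudogenes in the annotation, and reads may be shared with them. NHP2, an RNA-binding subunit of box H/ACA particles, was at 187 and 169 CPM in WT and 151 and 141 in sgKDM5C and fell by 0.29 (SE 0.10, adjusted p = 0.0428), a call kept under 7 of 17 alternatives. Of the 15 calls in sgKDM5C, those of POLR1E, NOB1, GNL3, DDX10 and BYSL held under all 17 alternatives. These 5 and WDR43 were the 6 lower members called without sgKDM5C replicate 2.

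**Figure D2:**
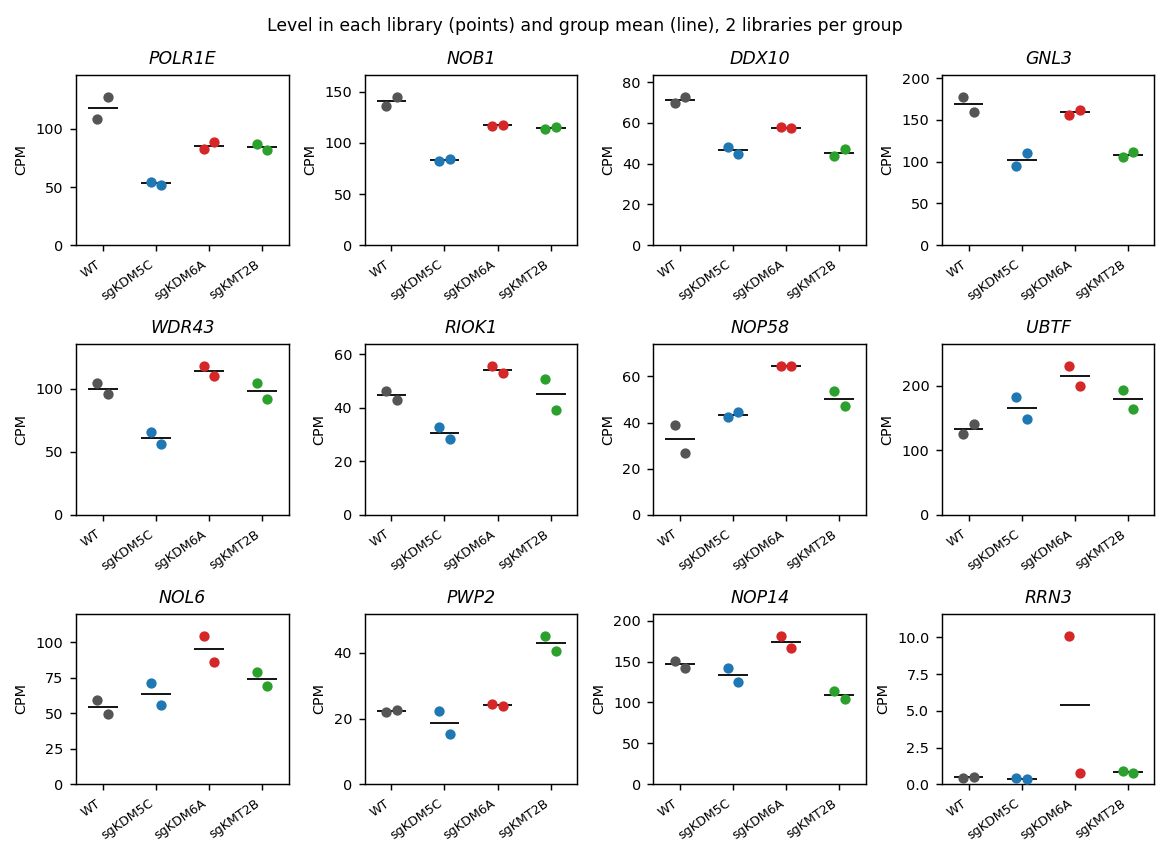
CPM (vertical axes, from 0) of 12 of the genes in each of the 8 libraries, with points for libraries, by group. POLR1E, NOB1 and DDX10 are highest in WT, RIOK1 and WDR43 are lowest in sgKDM5C, NOP58 and NOL6 are highest in sgKDM6A, and RRN3 has 1 high library.

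In sgKDM6A, members rose more often than they fell. Against WT, 25 of 56 were called higher and 3 lower, where 12.6% of tested genes were called higher and 14.6% lower (27.2% in either direction). The median log2 change was 0.31 over the members and 0.01 over all tested genes. Of the 11249 genes averaging 5 CPM or more, 1772 were called higher and 2063 lower, with a median of 0.009. Among members, higher calls were 5 of 6 in RNA polymerase I transcription. Of 10 other tested genes of that role, 4 were higher and 1 lower, with a median of -0.15. Higher members were 2 of 3 in box C/D, 1 of 4 in box H/ACA and 1 of 2 among the abundant nucleolar proteins. They were 6 of 18 in the processome, 2 of 6 among late small subunit factors and 8 of 17 in large subunit assembly. With WT replicate 2 left out the higher count was 15, and with sgKDM6A replicate 1 left out it was 12. With any 1 library left out, the lower count was between 0 and 2, and it was 0 without sgKDM6A replicate 1.

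NOP58, a core protein of box C/D particles, had the smallest adjusted p of this comparison. It was at 38.8 and 26.8 CPM in the WT libraries, 53.7 and 47.0 in those of sgKMT2B, 64.4 and 64.4 in those of sgKDM6A, and 42.4 and 44.5 in those of sgKDM5C. The sgKDM6A libraries were highest and nearly equal, and WT was lowest in both libraries. The log2 change in sgKDM6A was 0.96 ± 0.15 (SE, adjusted p = 0.000526), 1.95-fold higher. Its partner NOP56 was at 280.2 and 287 CPM in WT and 362 and 369 in sgKDM6A and rose by 0.37 (SE 0.09, adjusted p = 0.0086), whereas FBL, the methyltransferase of the same particle, was at 671 and 553 CPM in WT and 605 and 591 in sgKDM6A and had a log2 change of -0.03 ± 0.09 (SE, adjusted p = 0.813). NOP56 hosts small nucleolar RNAs in its introns. Its adjusted p was 0.0519 without sgKDM6A replicate 2. Of the box H/ACA proteins GAR1 rose by 0.59 (SE 0.14, adjusted p = 0.00852), and DKC1, the pseudouridine synthase, had a log2 change of 0.24 ± 0.12 (SE, adjusted p = 0.14). Without WT replicate 2 the adjusted p of GAR1 was 0.0645.

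The RNA polymerase I members divided within sgKDM6A. UBTF was at 126 and 142 CPM in the WT libraries, 194 and 164 in those of sgKMT2B, 230.3 and 199 in those of sgKDM6A, and 183 and 148 in those of sgKDM5C. WT was lowest and sgKDM6A highest, with the other groups between. The log2 change in sgKDM6A was 0.69 ± 0.12 (SE, adjusted p = 0.00143). The polymerase subunits POLR1A, POLR1B and POLR1C rose by 0.38 (SE 0.10, adjusted p = 0.0125), by 0.37 (SE 0.12, adjusted p = 0.0363) and by 0.69 (SE 0.16, adjusted p = 0.00549). POLR1C also serves RNA polymerase III. Without sgKDM6A replicate 1 the adjusted p was 0.121 for POLR1A, 0.226 for POLR1B and 0.052 for POLR1C, and without WT replicate 2 it was 0.0593 for POLR1A. The subunit POLR1E went the other way, at -0.46 ± 0.11 (SE, adjusted p = 0.00625), and without sgKDM6A replicate 1 its adjusted p was 0.0698. Its 50 nearest genes had a median of -0.20 in sgKDM6A. RRN3, the initiation factor that links the polymerase to its promoter, had raw counts of 255 and 21 in sgKDM6A, beside 11 and 8 in WT, 11 and 10 in sgKDM5C, and 23 and 20 in sgKMT2B. A single library, sgKDM6A replicate 1, stood apart. RRN3 was called higher (adjusted p = 0.0101), and without that library its log2 change was 0.63 (adjusted p = 0.598). The adjusted p was 0.0645 without WT replicate 1 and 0.0545 without WT replicate 2, and the gene has 3 named pseudogenes.

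Of the processome, NOL6 (the human UTP22) was at 59.2 and 49.3 CPM in the WT libraries, 79.3 and 69.4 in those of sgKMT2B, 104 and 85.7 in those of sgKDM6A, and 71.2 and 55.6 in those of sgKDM5C. The sgKDM6A libraries were above every library of the other groups, and the change was 0.81 ± 0.14 (SE, adjusted p = 0.00135). UTP15, a UTP-A subunit, was at 21.9 and 17.3 CPM in the WT libraries, 32.6 and 29.2 in those of sgKMT2B, 37.7 and 32.2 in those of sgKDM6A, and 29.6 and 24.1 in those of sgKDM5C, a low level that rose in sgKDM6A by 0.83 (SE 0.16, adjusted p = 0.00208). RRP9, the protein of the U3 particle, was at 55.0 and 39.1 CPM in the WT libraries, 72.6 and 62.2 in those of sgKMT2B, 89.3 and 78.2 in those of sgKDM6A, and 55.9 and 49.5 in those of sgKDM5C and rose by 0.82 (SE 0.15, adjusted p = 0.00151). For both genes the sgKDM6A libraries lay above both WT libraries. WDR36, UTP4 and NOL11 were the remaining processome members called higher, with log2 changes of 0.41, 0.32 and 0.45. The UTP4 call was lost under 11 of 17 alternatives, the WDR36 call under 5 (0.24 and adjusted p = 0.176 when scaled to its 50 nearest genes) and the NOL11 call under 3 (0.24 and adjusted p = 0.231 without WT replicate 2). DDX10 was the processome member called lower, at -0.30 ± 0.10 (SE, adjusted p = 0.0441), and this call was lost under 12 of 17 alternatives.

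In large subunit assembly, EBNA1BP2 (EBP2) was at 69.7 and 75.7 CPM in the WT libraries, 94.6 and 77.02 in those of sgKMT2B, 115 and 107 in those of sgKDM6A, and 87.9 and 77.1 in those of sgKDM5C. Its sgKDM6A libraries were the highest of the 8, and the change was 0.61 ± 0.12 (SE, adjusted p = 0.00219). DDX18, a nucleolar helicase, was at 109 and 88.9 CPM in WT and 149.7 and 145 in sgKDM6A and rose by 0.57 (SE 0.12, adjusted p = 0.00303). NIFK, which binds the Ki-67 protein, was at 36.5 and 28.7 CPM in WT and 53.4 and 47.4 in sgKDM6A and rose by 0.62 (SE 0.13, adjusted p = 0.00407). The sgKDM6A libraries lay above WT for both, and both genes have named pseudogenes in the annotation (5 and 8). NOL9, MRTO4, DDX56, NOP16 and WDR12 were the other 5 of the 8, with log2 changes between 0.32 and 0.61. NOL9 is a polynucleotide kinase of precursor processing, and its call held under all 17 alternatives. The WDR12 call was lost under 8 of them, down to 0.17 (adjusted p = 0.273), the NOP16 call under 4, the DDX56 call under 2 and the MRTO4 call under 1. Among late small subunit factors RIOK2 rose by 0.68 (SE 0.16, adjusted p = 0.00626) and LTV1 by 0.44 (SE 0.14, adjusted p = 0.0374), and NOB1 was lower at -0.27 ± 0.09 (SE, adjusted p = 0.0417). The NOB1 call was lost under 9 of 17 alternatives and the LTV1 call under 6. NCL (nucleolin), one of the most abundant nucleolar proteins, was at 847 and 689 CPM in WT and 995 and 922 in sgKDM6A and rose by 0.32 (SE 0.10, adjusted p = 0.038), but without WT replicate 2 its change was 0.18 (adjusted p = 0.222).

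**Figure D3:**
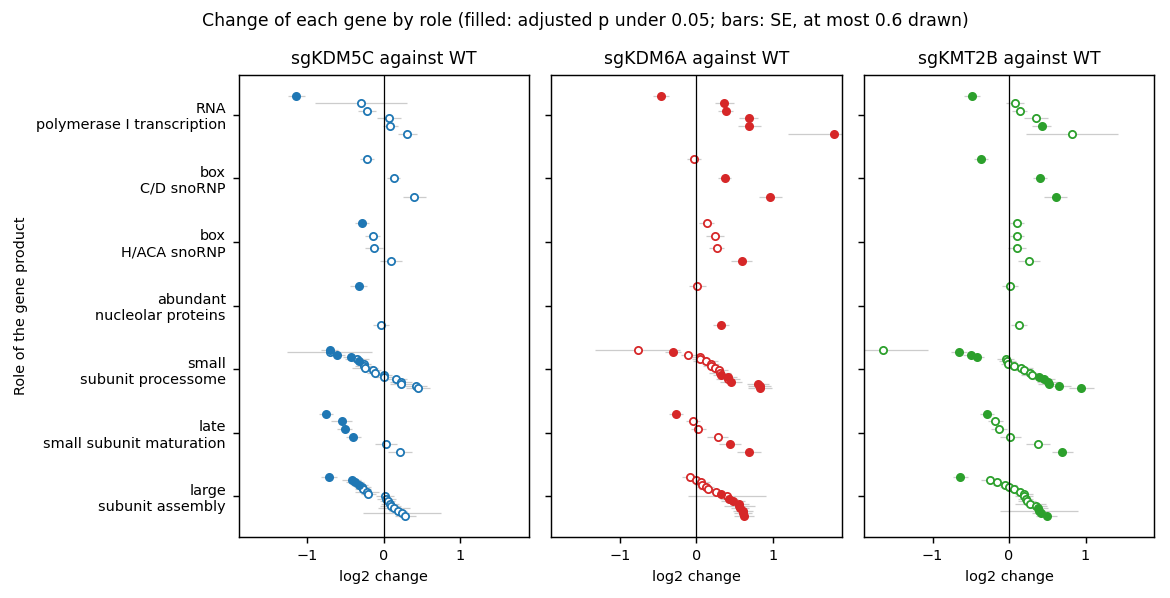
Fitted log2 change against WT (points, with bars of 1 SE) of each of the 56 genes in the 3 knockouts, arranged by role. Values end at 1.8, which holds RRN3 in sgKDM6A at the limit, and error bars end at 0.6. POLR1E, NOB1 and DDX10 are below 0 in all 3 knockouts.

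In sgKMT2B, members moved both ways. Against WT, 13 of 56 were called higher and 7 lower, where 13.7% of tested genes were called higher and 14.5% lower (28.1% in either direction). The lower count was near the share of all tested genes. The median log2 change was 0.15 over the members and 0.00 over all tested genes. Of the 11249 genes averaging 5 CPM or more, 1931 were called higher and 2024 lower, with a median of 0.005. The members' median was 0.088 without sgKMT2B replicate 1 and 0.098 without WT replicate 2. Within the processome 6 of 18 rose and 3 fell, in large subunit assembly 3 of 17 rose and 1 fell, and in box C/D 2 of 3 rose and 1 fell. RNA polymerase I transcription and the late small subunit factors each had 1 of 6 higher and 1 lower. No box H/ACA protein and neither abundant nucleolar protein was called by edgeR, and the lowest adjusted p among these 6 was 0.207. The higher count was 6 without WT replicate 2 and 2 without sgKMT2B replicate 1, with a lower count of 4 without sgKMT2B replicate 2.

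PWP2, a subunit of the UTP-B complex, was at 21.9 and 22.8 CPM in the WT libraries, 45.2 and 40.7 in those of sgKMT2B, 24.6 and 23.8 in those of sgKDM6A, and 22.3 and 15.2 in those of sgKDM5C. The sgKMT2B libraries stood apart from the other 6. The log2 change was 0.94 ± 0.16 (SE, adjusted p = 0.000908), 1.92-fold higher, beside a median of 0.07 over its 50 nearest genes. LTV1, a factor that stays on the pre-40S particle until its last steps, was at 22.6 and 18.3 CPM in the WT libraries, 33.7 and 32.8 in those of sgKMT2B, 29.5 and 26.0 in those of sgKDM6A, and 19.9 and 22.02 in those of sgKDM5C and rose by 0.70 (SE 0.14, adjusted p = 0.00288). Of its exon bases, 34.8% are shared with unnamed transcripts on the same strand, so its counts are uncertain. UTP15, NOP58, RRP9, NOL6, UTP20 and WDR36 had changes between 0.39 and 0.65. For UTP20, a long scaffold protein, the libraries were at 37.3 and 38.4 CPM in WT and 60.1 and 48.3 in sgKMT2B. NOP56 rose by 0.40 (SE 0.09, adjusted p = 0.00485), but when libraries were scaled chromosome by chromosome its change was 0.12 (adjusted p = 0.311). The median change was 0.296 over chromosome 20 and 0.029 over its 50 nearest genes, and the call held when scaled to those 50. UBTF, DDX18, NIFK and MRTO4 were the remaining higher members, with changes of 0.42, 0.41, 0.49 and 0.38. PWP2 and LTV1 were the 2 higher members called without sgKMT2B replicate 1.

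The lower members in sgKMT2B were GNL3, DDX10, WDR3, NOP14, POLR1E, FBL and NOB1. GNL3 had a log2 change of -0.64 ± 0.10 (SE, adjusted p = 0.000529) and DDX10 of -0.65 ± 0.10 (SE, adjusted p = 0.000549), and both calls held under all 17 alternatives. POLR1E was at -0.48 ± 0.11 (SE, adjusted p = 0.00454) and NOB1 at -0.29 ± 0.09 (SE, adjusted p = 0.0265). The NOB1 call was lost under 5 of 17 alternatives, among them leaving out either sgKMT2B library or WT replicate 2. WDR3 was at 117 and 118 CPM in WT and 88.0 and 77.4 in sgKMT2B, a fall of 0.50 (adjusted p = 0.00293), and without sgKMT2B replicate 2 its adjusted p was 0.0501. NOP14, a processome protein, was at 151 and 142 CPM in the WT libraries, 114 and 105 in those of sgKMT2B, 181 and 167 in those of sgKDM6A, and 142 and 125 in those of sgKDM5C. The sgKMT2B libraries were the lowest of the 8, with a change of -0.42 ± 0.10 (SE, adjusted p = 0.0066). FBL was at 671 and 553 CPM in WT and 480.5 and 471 in sgKMT2B and fell by 0.36 (SE 0.09, adjusted p = 0.0108). NOP14 had an adjusted p of 0.0775 and FBL one of 0.0749 without sgKMT2B replicate 2. The 50 genes nearest to NOP14 and those nearest to FBL were lower too, with medians of -0.48 and -0.25.

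POLR1E, NOB1 and DDX10 were called lower in all 3 knockouts, 3 of 56 members, where 3.31% of the 17527 tested genes were, so their number is near the background. No member was called higher in all 3 (3.5% of tested genes) or in opposite directions in different knockouts (2.81% of tested genes). These comparisons share the 2 WT libraries. In all, 44 of 56 members were called in at least 1 knockout and 12 in none, where 48.5% of tested genes were called in at least 1. In the order sgKDM5C, sgKDM6A, sgKMT2B, the log2 changes were -1.14, -0.46 and -0.48 for POLR1E, -0.75, -0.27 and -0.29 for NOB1, and -0.61, -0.30 and -0.65 for DDX10.

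The comparisons between knockouts take no level from WT, although the WT libraries enter the shared estimate of the spread, and those with sgKDM5C share its 2 libraries. Between sgKDM5C and sgKDM6A, 39 of 56 members were lower in sgKDM5C and 0 higher by edgeR, where 8.86% of tested genes were lower and 10.9% higher (19.8% in either direction). At an unadjusted p under 0.05 the count was 48 lower and 0 higher, and DESeq2 called 44 lower and 0 higher. The median was -0.43 over the members and 0.01 over all tested genes, and the change was below 0 in 54 members. Of the 11249 genes averaging 5 CPM or more, 1319 were lower in sgKDM5C and 1356 higher, with a median of -0.035. All 6 RNA polymerase I members were called lower in sgKDM5C, with 3 of 4 box H/ACA, 1 of 3 box C/D, both abundant nucleolar, 11 of 18 processome, 5 of 6 late small subunit and 11 of 17 large subunit members. Of those 6, RRN3 rests on sgKDM6A replicate 1, without which it differed by -0.94 (adjusted p = 0.447), and the calls of POLR1A and UBTF were lost under 10 and 4 of 17 alternatives. The count of lower members was 11 without sgKDM5C replicate 2, 15 without sgKDM6A replicate 1 and 26 without sgKDM6A replicate 2.

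WDR43 differed between sgKDM5C and sgKDM6A by -0.90 ± 0.11 (SE, adjusted p = 9.84e-05), beside a median of -0.48 over its 50 nearest genes. RIOK1 was at 32.7 and 28.2 CPM in sgKDM5C and 55.5 and 52.9 in sgKDM6A, a difference of -0.83 ± 0.14 (SE, adjusted p = 0.000882). POLR1E, GNL3 and NHP2 differed by -0.68, -0.64 and -0.55, with adjusted p-values of 0.00061, 0.000696 and 0.00117. These 5 were among the members with the smallest adjusted p, and their calls held under every alternative run. NHP2 was at 151 and 141 CPM in sgKDM5C and 220.4 and 208 in sgKDM6A, on either side of the WT libraries.

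Between sgKDM5C and sgKMT2B, 19 of 56 members were lower in sgKDM5C and 0 higher by edgeR, where 10.5% of tested genes were lower and 11.6% higher (22.1% in either direction). At an unadjusted p under 0.05 there were 26 lower and 1 higher, and DESeq2 called 21 lower and 0 higher. Of the 11249 genes averaging 5 CPM or more, edgeR called 1544 lower in sgKDM5C and 1392 higher. PWP2 differed most clearly, by -1.19 ± 0.16 (SE, adjusted p = 0.000165). POLR1E, NOB1 and HEATR1 differed by -0.66, -0.46 and -0.60, with adjusted p-values of 0.000635, 0.00238 and 0.000671, and WDR43 by -0.69 ± 0.11 (SE, adjusted p = 0.000671). Scaled to its 50 nearest genes, WDR43 differed by -0.29 (adjusted p = 0.11). HEATR1 was at 133 and 121 CPM in sgKDM5C and 198 and 187 in sgKMT2B. Its 50 nearest genes differed by a median of -0.255, and its call held when scaled to them. In sgKMT2B against WT, HEATR1 had changed by 0.27 and those genes by a median of 0.30. The count of lower members was 7 without sgKDM5C replicate 2, 7 without sgKMT2B replicate 1 and 12 without sgKMT2B replicate 2. There was 1 higher member without either WT library.

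Between sgKDM6A and sgKMT2B, 8 of 56 members were higher in sgKDM6A and 1 lower, where 12.4% of tested genes were higher and 12.5% lower (24.9% in either direction). The higher count was near the share of all tested genes. Of the 11249 genes averaging 5 CPM or more, 1674 were higher in sgKDM6A and 1728 lower. GNL3 was at 156 and 162 CPM in sgKDM6A and 106 and 111 in sgKMT2B, a difference of 0.55 ± 0.10 (SE, adjusted p = 0.00124) that held under every alternative. PWP2, the lower member, differed by -0.83 ± 0.16 (SE, adjusted p = 0.00189), and scaled to its 50 nearest genes by -0.46 (adjusted p = 0.0539). NOP14, WDR3 and FBL differed by 0.67, 0.40 and 0.33, with adjusted p-values of 0.000259, 0.0117 and 0.0193. The WDR3 call was lost without sgKDM6A replicate 2 (adjusted p = 0.0904) or sgKMT2B replicate 2 (adjusted p = 0.156), and the FBL call without any of the 4 libraries compared (adjusted p up to 0.125). The count of higher members was 3 without sgKDM6A replicate 1, 4 without sgKDM6A replicate 2, 5 without sgKMT2B replicate 1 and 2 without sgKMT2B replicate 2.

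**Figure D4:**
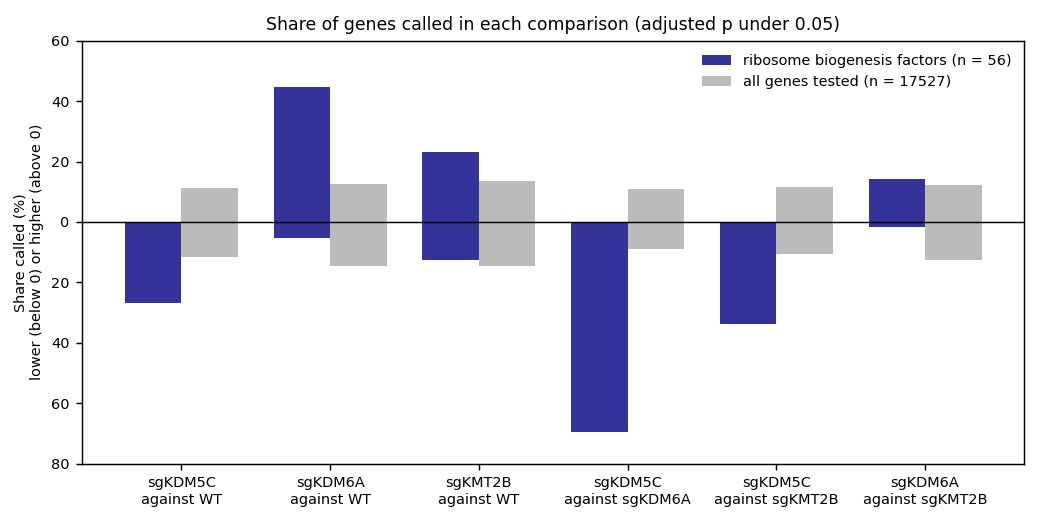
Percent of the 56 members and of the 17527 tested genes called higher or lower at an adjusted p under 0.05 in each of the 6 comparisons. The member shares stand farthest from those of all genes for lower calls between sgKDM5C and sgKDM6A (39 of 56) and for higher calls in sgKDM6A against WT (25 of 56).

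For some members the nearest genes were shifted as well. The median log2 change of the 50 nearest tested genes (mean level of 5 CPM or more) was set beside each member's own change. In sgKDM5C it was -0.44 around WDR43 and -0.46 around NOL10, both on chromosome 2, and NOL10 itself had a log2 change of -0.35 ± 0.16 (SE, adjusted p = 0.131). In sgKMT2B it was -0.48 around NOP14, which had changed by -0.42, -0.29 around WDR3 and -0.25 around FBL. Scaled to those neighbours, NOP14 had a log2 change of 0.07 (adjusted p = 0.598), WDR3 one of -0.24 (adjusted p = 0.0959) and FBL one of -0.08 (adjusted p = 0.581). Between sgKDM6A and sgKMT2B the neighbours of NOP14 differed by 0.62, and scaled to them NOP14 differed by 0.05 (adjusted p = 0.749). The neighbours of NOL6 had a median of -0.23 in sgKDM6A, opposite to the member, and those of POLR1E, NOB1, GNL3 and DDX10 in sgKDM5C had medians of -0.05, -0.05, 0.05 and 0.14. With every gene scaled in this way, the members called were 12 higher and 4 lower in sgKMT2B, 1 higher and 13 lower in sgKDM5C, and 25 higher and 3 lower in sgKDM6A. The scaling was chosen after seeing the data.

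**Figure D5:**
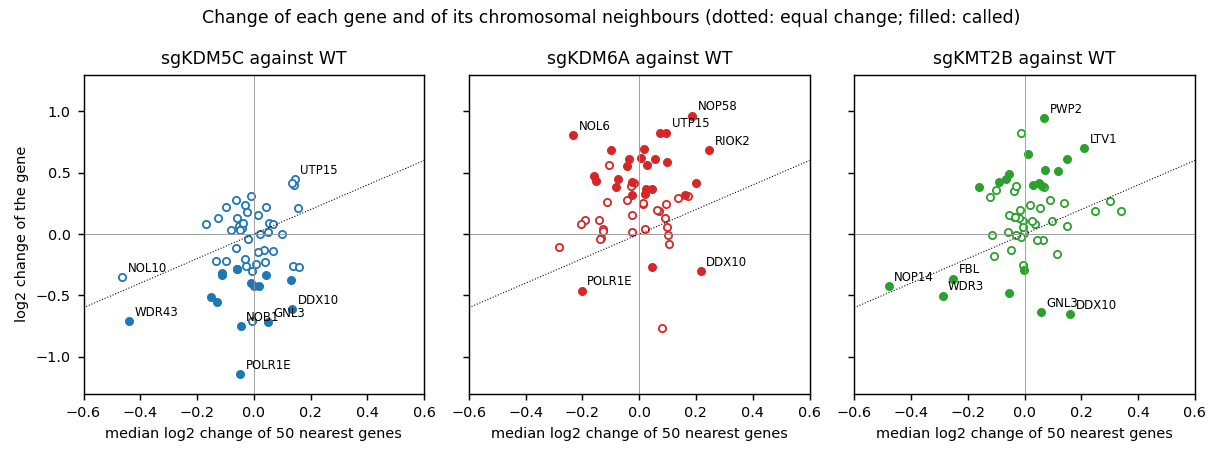
Log2 change of each member against WT (vertical axis) and median log2 change of its 50 nearest tested genes (horizontal axis) in the 3 knockouts. RRN3 in sgKDM6A and DDX47 in sgKMT2B lie beyond the limit of 1.3 and are left out. NOP14 in sgKMT2B and WDR43 in sgKDM5C lie toward the lower left, while POLR1E in sgKDM5C lies low with neighbours near 0.

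Some members have counts that other transcripts could share. NOP2, an rRNA methyltransferase, was between 0.578 and 1.14 CPM over the 8 libraries, and 54.4% of its exon bases overlap another annotated gene on the same strand. DDX47, a helicase, was between 0.241 and 1.82 CPM, and 36.5% of its exon bases overlap APOLD1. Neither was called in a knockout against WT, and DDX47 had a log2 change of -1.65 ± 0.60 (SE, adjusted p = 0.0541) in sgKMT2B. PPAN, a large subunit factor, lay between 14.4 and 27.5 CPM and shares 59.8% of its exon bases with P2RY11 and the PPAN-P2RY11 readthrough. HEATR1, NHP2, TSR1 and NOB1 have 20% or more of their exon bases (23.2%, 27.4%, 20.8% and 20.2%) opposite another gene, and whether the counting used strand is not known here.

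The rest of the pathway was read from 125 tested genes for other ribosome biogenesis factors, a list written with earlier results of these data known. In sgKDM5C 6 were called higher and 22 lower, with a median of -0.05, where 11.1% of all tested genes were higher and 11.5% lower. In sgKDM6A 41 were higher and 5 lower, with a median of 0.25, beside shares of 12.6% and 14.6%. In sgKMT2B 26 were higher and 18 lower, with a median of 0.13, beside shares of 13.7% and 14.5%. The lower count in sgKMT2B was near its share. PELP1, of the rixosome, was at 257 and 229 CPM in WT and 145 and 146 in sgKDM5C, and NLE1, a large subunit factor, at 124 and 112 in WT and 71.1 and 66.0 in sgKDM5C. Both were lower in sgKDM5C, by -0.74 (adjusted p = 0.00015) and -0.78 (adjusted p = 0.000217) on the log2 scale. In sgKDM6A the helicase DDX51 was at 83.3 and 75.5 CPM against 31.3 and 27.2 in WT (log2 change 1.44, adjusted p = 1.15e-05). TTF1, the RNA polymerase I termination factor, was at 31.9 and 31.0 CPM in sgKDM6A against 11.0 and 12.5 in WT (log2 change 1.42, adjusted p = 1.7e-05). POLR1D, a subunit of RNA polymerases I and III, was lower in sgKDM5C by -0.64 (adjusted p = 0.000754) and in sgKMT2B by -0.91 (adjusted p = 2.76e-05), the latter beside a median of -0.58 over its 50 nearest genes. RRP15, a large subunit factor, was higher in sgKDM6A by 1.29 (adjusted p = 0.000131) and in sgKMT2B by 1.36 (adjusted p = 7.21e-05).

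Genes for the proteins of the ribosome itself were described in the same way. Of 79 genes for cytosolic ribosomal proteins, 5 were called higher and 17 lower in sgKDM6A (median -0.05), 22 lower and 57 not called in sgKDM5C (median -0.19), and 7 higher and 5 lower in sgKMT2B (median -0.02). Their summed level was 119940 to 128830 CPM in sgKMT2B, 122950 to 129250 in WT, 113950 to 114840 in sgKDM6A and 107990 to 109680 in sgKDM5C. RPS6 was at 2909.8 and 2878 CPM in WT and 2035 and 1951 in sgKDM6A (log2 change -0.54, adjusted p = 0.000123). RPL3 was at 3696 and 4369 CPM in WT, 2847 and 2844 in sgKDM5C, and 2794 and 2831 in sgKDM6A, with log2 changes of -0.50 (adjusted p = 0.00118) and -0.52 (adjusted p = 0.000623). RPL36 was at 1159 and 1280.2 CPM in WT and 815 and 813 in sgKDM5C (log2 change -0.58, adjusted p = 0.000703). These genes were named for their small adjusted p, so the lack of overlap between knockout and WT libraries adds no support. Of 73 tested mitochondrial ribosomal protein genes, 5 were higher and 16 lower in sgKDM5C, 12 higher and 9 lower in sgKDM6A, and 8 higher and 11 lower in sgKMT2B. For both lists, the shares of all tested genes were 11.1% higher and 11.5% lower in sgKDM5C. They were 12.6% and 14.6% in sgKDM6A, and 13.7% and 14.5% in sgKMT2B. The mitochondrial counts in sgKMT2B were near these shares.

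MYC, the transcription factor known to bind the promoters of many of these genes, was at 392 and 569.9 CPM in WT, 229 and 268 in sgKDM6A, 184 and 220.4 in sgKMT2B, and 74.8 and 74.4 in sgKDM5C. It was lower in all 3 knockouts, with log2 changes of -0.95 (adjusted p = 0.000516) in sgKDM6A, -1.25 (adjusted p = 6.18e-05) in sgKMT2B and -2.69 (adjusted p = 5.86e-07) in sgKDM5C. The members called in sgKDM5C were all lower, whereas most of those called in sgKDM6A were higher while MYC was below WT. MAX, its partner, was at 55.6 and 53.5 CPM in WT and 91.8 and 78.9 in sgKDM6A (log2 change 0.64, adjusted p = 0.0025). Its raw counts were 1347 and 823 in WT, 2110 and 1697 in sgKDM5C, and 1920 and 1638 in sgKMT2B. Scaled to depth, MAX lay above both WT libraries in these 2 knockouts too, but edgeR did not call it in sgKDM5C. The part of MYC in the members' levels was not tested.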

How the data were processed

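Poly(A) RNA of HEK293T cells was sequenced, per the labels' protocols, with paired reads (NovaSeq) in 8 libraries, 2 for each of WT, sgKDM5C, sgKDM6A and sgKMT2B. Groups and replicate numbers were taken from the sample labels. The authors deposited raw read counts per Ensembl gene, and the submitters' processing notes name HTSeq 0.11.2, STAR and the GRCh38 build. Not given in the sources used here are the STAR version, the annotation release and the strand setting.

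The test was that of edgeR 4.0.16, run in R 4.3.3 (glmQLFit and glmQLFTest, TMM factors, filterByExpr by group), with all 8 libraries in 1 fit and 4 residual degrees of freedom. P-values were adjusted by the Benjamini-Hochberg method over all 17527 tested genes in each of 6 comparisons, with 0.05 as the threshold for a call. Levels are TMM-scaled CPM per library, and changes are fitted log2 values with their SE. Total counts of 15868353 to 27591724 put a floor of 3 counts at 0.189 to 0.109 CPM. Replicates of a group differed by more than sampling noise, so each library counted once. Gene positions and exon overlaps came from GENCODE v29, and promoters from RefSeq. The steps were tested on simulated data. Alternatives were DESeq2 1.42.0, other scalings and filters, a replicate block, libraries thinned to 1 depth, only the 2 groups compared, and each library left out.

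The members, roles, other gene lists and tests were chosen with earlier results of these data known. Full values were given for up to 8 called members with the smallest adjusted p in each knockout against WT and up to 5 in each pair of knockouts, for members called 1 way in all 3 knockouts, and for up to 3 genes of each other list per knockout. Further members were named to account for the list.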

Additional observations from a re-analysis of the deposited data

How the results depend on the processing

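Of 130 calls of members over the 6 comparisons, 34 held under each of 17 alternatives, 96 were lost under at least 1, and 3 of these changed sign. NOP14 in sgKMT2B against WT was at 0.074 when scaled to its 50 nearest genes, NOP56 in sgKDM5C against sgKMT2B was at 0.025 when scaled per chromosome, and RRN3 in sgKDM6A against sgKMT2B was at -0.19 without sgKDM6A replicate 1, the lowest of its values with 1 library left out, which reached 3.555 without sgKDM6A replicate 2. Higher members in sgKDM5C against WT (0) became 2 with upper-quartile factors and with DESeq2, 1 with scaling per chromosome, with scaling to the 50 nearest genes and with a minimum mean of 1 CPM, and 4 without a filter. Higher members in sgKDM5C against sgKMT2B (0) became 1 with upper-quartile factors, with a minimum mean of 1 CPM and with only the 2 groups compared, and the lower ones (19) became 12 with scaling to the nearest genes. Lower members in sgKDM6A against WT (3) became 1 without a filter and with only the 2 groups compared. Lower members in sgKMT2B against WT (7) became 4 with scaling to the nearest genes. In sgKDM6A against sgKMT2B the lower member (1) became 0 under both regional scalings, and the higher ones (8) became 15 with only the 2 groups compared. The cause of these shifts was not tested.

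With 1 library left out, counts of higher and lower members ran from 0 to 4 and 6 to 17 in sgKDM5C against WT, 12 to 26 and 0 to 2 in sgKDM6A, and 2 to 18 and 4 to 8 in sgKMT2B. They ran from 0 to 0 and 11 to 46 between sgKDM5C and sgKDM6A, 0 to 1 and 7 to 26 between sgKDM5C and sgKMT2B, and 2 to 12 and 1 to 1 between sgKDM6A and sgKMT2B. Where an arm kept 1 library, it was taken to vary like the other groups. Libraries of different groups share only a replicate number. The correlations of replicate differences between groups ran from -0.10 to 0.49, and with the number as a replicate block there were 4 higher and 17 lower members in sgKDM5C against WT and 1 higher and 25 lower in sgKDM5C against sgKMT2B. WT replicate 2 was the shallowest library, and the 2 libraries per group limit what could be called.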
